A study of Mus musculus with 72 samples.

Results

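The genes described are 9 transcription factor genes, Pax5, Klf5, Sox14, Pou3f1, Pou3f2, Bcl11a, Npas1, Npas3 and Id2, in Pet1 neurons of the mouse dorsal raphe (DR). Pet1 neurons express or once expressed Pet1 (Fev), and most make serotonin (5-HT). The genes were found by symbol, and all 9 were among the 17231 genes of a droplet (10X) count table and the 24256 genes of a count table from hand-sorted cells. They were chosen by their own levels and joint detection per cell in the same cells, across the 10X clusters and the anatomical groups. What follows on those levels is therefore a description with no test.

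The 10X cells came from the whole DR of adult mice in 2 runs. The first run used Pet1::Flpe+/-; hM3Dq+/+ mice with a mean age of P65.5 (postnatal day 65.5). The second used En1::cre+/-; Pet1::Flpe+/-; RC::FrePe+/- animals, whose mean age was P59. In the first run Flpe alone labels the Pet1 lineage, while in the second label needs both recombinases and so is limited to cells with a history of En1, a gene of the isthmus and rostral hindbrain. The 2350 cells are not tied to mice, so the 10X table counts as 1 sample. Barcodes end in 1 for 869 cells (set 1) and in 2 for 1481 cells (set 2), and no source used here says which run an ending stands for. The barcodes without their endings were compared, and 0 were in both sets.

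The hand-sorted cells were taken from parts of the DR: dorsolateral (dlDR), dorsomedial (dmDR), ventromedial (vmDR), rostral (rDR) and caudal (cDR). All carried Pet1::Flpe+/- and RC::FrePe+/-, a reporter that needs both Cre and Flpe. Sert::cre+/- mice gave 10 dlDR, 9 dmDR and 8 vmDR cells at P63 or P90, and 6 cDR cells at P63. Npy2r::cre+/- mice gave 9 rDR and 10 cDR cells at P77 or P87. Crh::cre+/- mice gave 8 rDR cells at P83 or P119, and P2ry1::cre+/- mice gave 10 cDR cells at ages from P62 to P74. Label records that a Cre driver was once active, so a labelled cell need not express that gene in the adult. Each of these 70 samples is 1 cell and the labels name no animal, so each of the 8 groups counts as 1 sample and groups are described without a test.

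Transcription factors bind short DNA sequences and set which genes a neuron transcribes, and combinations of them can define neuron subtypes. Pax5 is a paired-box factor that helps pattern the midbrain and hindbrain border and commits lymphocytes to the B lineage. Klf5 is a Krüppel-like zinc finger factor, and Sox14 is a high mobility group (HMG) box factor of a repressor subgroup of the Sox family. Pou3f1 (Oct6) and Pou3f2 (Brn2) are class III POU factors, and Bcl11a is a zinc finger repressor known for silencing fetal globin genes. Npas1 and Npas3 are basic helix-loop-helix factors with a PAS domain. Id2 has a helix-loop-helix but no basic region, and keeps basic helix-loop-helix partners off DNA.

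UMIs (unique molecular identifiers, each marking 1 captured transcript) ranged from 12320 to 134079 per 10X cell with a median of 59646, and the hand-sorted libraries held 756872 to 7664103 reads on genes. Levels are in CPM, the count of a gene scaled to a fixed total, of summed UMIs or, for hand-sorted cells, of reads. Seurat clustering gave 14 clusters, numbered by marker genes other than the 9. The summed level of 7 Pet1 neuron genes lay between 2598 CPM in cluster 13 and 10310 CPM in cluster 3, and between 6014 and 32521 CPM in the hand-sorted cells. Of 6 lists for other cell types, 5 summed to at most 11.0 CPM in any cluster. Oligodendrocyte genes summed to between 23.4 and 66.0 CPM, highest in cluster 13. In single hand-sorted cells they reached 268 CPM and astrocyte genes 200 CPM. Scrublet called 14 cells (0.596%) doublets, which were kept.

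Across the 10X cells, Pax5 was detected (at least 1 UMI) in 57.8%, Klf5 in 45.2%, Npas3 in 41.1%, Bcl11a in 39.6%, Id2 in 34.3% and Sox14 in 31.9%. Pou3f1 was detected in 19.7%, Pou3f2 in 19.6% and Npas1 in 3.83%. Detection depends on depth. After each cell was thinned to 20000 UMIs, which left 2297 cells, the shares ran from 41.9% for Pax5 to 2.66% for Npas1. For 7 of the 9 genes, all but Pax5 and Klf5, the top cluster exceeded all other cells at least 4-fold. For Sox14 this did not hold in 4 other clusterings (without the 9 genes, without doublets, with components 1 to 50, and with an exact PCA chosen after seeing the data). There its log2 ratio, in the cluster that took the most cells of cluster 4, ran from 1.80 to 1.93, below the 2 that equals 4-fold. That level of enrichment was met by 4.04% of 11906 genes with at least 200 UMIs, but nothing is read from this, because the genes were chosen on these clusters and all 9 were among the 2000 variable genes that built them.

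**Figure D1:**
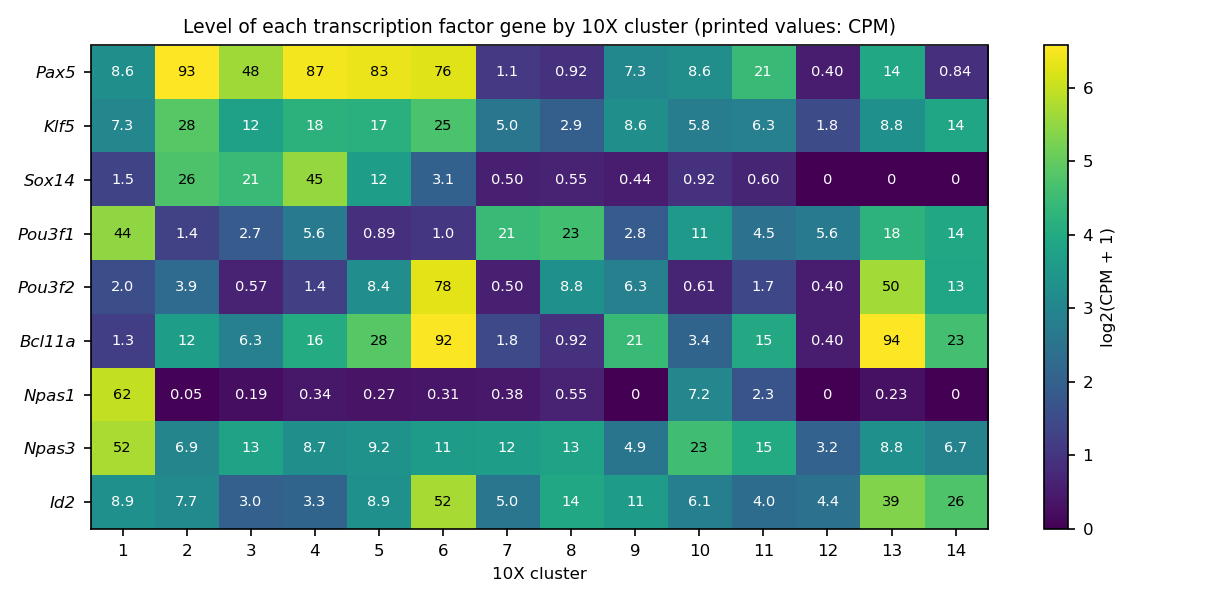
Level of each of the 9 transcription factor genes (rows) in each 10X cluster (columns), coloured by log2(CPM + 1) of summed UMIs with CPM printed in each cell. Pax5, Klf5 and Sox14 are high in clusters 2 to 5, Pou3f2, Bcl11a and Id2 in clusters 6 and 13, and Npas1, Npas3 and Pou3f1 in cluster 1.

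Pax5, Klf5 and Sox14 shared clusters 2 to 5 and differed in how far they reached beyond them. Pax5 (chr4:44524757-44710487, GRCm38, minus strand) had 93.0 CPM in cluster 2 (95% exact Poisson interval 88.9 to 97.3). It had 87.3 CPM in cluster 4 (81.2 to 93.7), 82.6 CPM in cluster 5 (77.3 to 88.1) and 75.7 CPM in cluster 6 (70.3 to 81.4). Such intervals, and the exact binomial (Clopper-Pearson) intervals of shares, cover counting error only. From cluster 2 down to cluster 6 neighbours in this order overlapped in their intervals. Cluster 3 stood apart below them at 48.3 CPM (45.3 to 51.4), and cluster 11 apart again at 20.9 CPM (17.9 to 24.2). In cluster 2 a cell held from 0 to 18 Pax5 UMIs with a median of 5. Clusters 2 to 6 together held 91.4% of all Pax5 UMIs in 1174 of the 2350 cells.

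Klf5 (chr14:99298691-99315036, plus strand) was graded and reached further. Its level was 28.2 CPM in cluster 2 (26.0 to 30.6) and 25.1 CPM in cluster 6 (22.0 to 28.4), which were not separable. Clusters 4 and 5 followed at 17.7 and 17.0 CPM, cluster 14 at 13.7 CPM and cluster 3 at 12.5 CPM, and the lowest was cluster 12 at 1.81 CPM (0.828 to 3.44). Clusters 7 to 14 held 20.6% of Klf5 UMIs, against 7.89% of Pax5 UMIs and 1.99% of Sox14 UMIs.

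Sox14 (chr9:99874106-99876170, minus strand, a single exon) was the most restricted of these genes. Cluster 4 led at 45.0 CPM (40.6 to 49.6). Clusters 2 (25.6 CPM, 23.5 to 27.9), 3 (21.0 CPM, 19.1 to 23.0), 5 (11.6 CPM, 9.69 to 13.8) and 6 (3.12 CPM, 2.11 to 4.45) each lay apart from the cluster above. In cluster 4, 91.0% of cells held a Sox14 UMI (85.2 to 95.1%), at a median depth of 59697 UMIs. Clusters 12, 13 and 14 held 0 Sox14 UMIs in 109, 144 and 100 cells, at median depths of 45568, 28627.5 and 34715 UMIs. A count of 0 allows up to 0.604, 0.680 and 0.841 CPM there (3 counts over each cluster). Cluster 6 thus combined Pax5 at 75.7 CPM and Klf5 at 25.1 CPM with little Sox14. The border between clusters 2 and 4 depended on the clustering: 78 of the 145 cells of cluster 4 joined cluster 2 under an exact PCA, an alternative chosen after seeing the data. The log2 ratio of Sox14 in the joined cluster of the exact PCA over all other cells was 1.93, against 2.29 for cluster 4 as clustered here.

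Promoters of 7 of the 9 genes were matched in RefSeq (GRCm38.p6). Each window of 300 bases runs from 250 before to 50 after the start annotated in RefSeq, which need not be that of the GENCODE gene given here. The starts are the same for Sox14 and Pou3f2, and that of Pax5 lies 207 bases outside its GENCODE gene. Those of Pax5 (chr4:44710645-44710944, minus strand) and Sox14 (chr9:99876121-99876420, minus strand) are shown because the genes were detected in the same cells. Capitals mark matches, on either strand, to 4 short motifs: the core bound by bHLH-PAS dimers (ACGTG), the E box (CANNTG), a POU octamer core (ATGCAAA) and a core of ETS factors such as Pet1 itself (CCGGAAG). The letters CACGTG would count under the first and the second motif, and none of the 7 windows held a match shared in this way.
Pax5: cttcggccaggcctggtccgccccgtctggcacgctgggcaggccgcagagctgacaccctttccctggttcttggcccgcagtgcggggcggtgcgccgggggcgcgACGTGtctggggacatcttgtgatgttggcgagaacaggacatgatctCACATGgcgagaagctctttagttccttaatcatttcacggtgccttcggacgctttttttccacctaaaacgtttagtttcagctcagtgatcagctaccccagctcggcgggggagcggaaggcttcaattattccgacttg
Sox14: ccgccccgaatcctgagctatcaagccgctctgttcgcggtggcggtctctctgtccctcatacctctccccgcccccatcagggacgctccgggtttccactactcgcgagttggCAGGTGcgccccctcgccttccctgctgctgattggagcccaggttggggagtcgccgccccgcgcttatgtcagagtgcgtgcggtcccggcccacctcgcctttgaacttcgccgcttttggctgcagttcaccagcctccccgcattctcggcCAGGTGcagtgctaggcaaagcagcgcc
The Pax5 window held 1 match to ACGTG and 1 E box, and the Sox14 window held 2 E boxes. Of 32851 promoters of this length, 19.6% held ACGTG, 72.3% an E box, 4.63% ATGCAAA and 8.86% CCGGAAG. A match describes letters only and is not a binding site.

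Pou3f2, Bcl11a and Id2 peaked in clusters 6 and 13. Pou3f2 (chr4:22482780-22488366, minus strand, a single exon) reached 78.4 CPM in cluster 6 (72.9 to 84.2) and 49.9 CPM in cluster 13 (43.5 to 56.9). The next was cluster 14 at 13.4 CPM (9.92 to 17.8), apart from both. Clusters 6 and 13 held 71.4% of all Pou3f2 UMIs in 312 cells. A cluster 6 cell held 0 to 19 Pou3f2 UMIs with a median of 4, and a cluster 13 cell 0 to 9 with a median of 1. In cluster 7, which was deeper (median 65766.5 UMIs) than cluster 6 (59614.5 UMIs), 4 of 122 cells held a Pou3f2 UMI (3.28%, with an upper bound of 8.18%), against 92.9% in cluster 6 (87.9 to 96.3%).

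Bcl11a (chr11:24078056-24174123, plus strand) had 94.1 CPM in cluster 13 (85.3 to 104) and 91.5 CPM in cluster 6 (85.6 to 97.8), which were not separable. Cluster 5 followed apart at 27.9 CPM (24.9 to 31.2), where 73.2% of cells still held a UMI. Its floor was in cluster 12, at 0.403 CPM and 2 UMIs, both in 1 cell of 109.

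Id2 (chr12:25093799-25097140, minus strand) had 51.8 CPM in cluster 6 (47.3 to 56.5), 39.5 CPM in cluster 13 (33.8 to 45.8) and 26.1 CPM in cluster 14 (21.0 to 31.9), each apart from the next. It never fell to 0: the lowest level was 3.01 CPM in cluster 3 (2.31 to 3.85), where 16.9% of cells held a UMI. Cluster 13 had the lowest depth beside these results (median 28627.5 UMIs) and the lowest summed Pet1 neuron genes. The part of these in its levels of Pou3f2, Bcl11a and Id2 was not tested.

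The promoters of these 3 genes are shown because their levels peaked in the same clusters, with capitals as before. The windows lie at chr4:22488317-22488616 (Pou3f2, minus strand), chr11:24080445-24080744 (Bcl11a, plus strand) and chr12:25096043-25096342 (Id2, minus strand), with the RefSeq start 2639 bases inside the GENCODE gene for Bcl11a and 1048 bases inside it for Id2.
Pou3f2: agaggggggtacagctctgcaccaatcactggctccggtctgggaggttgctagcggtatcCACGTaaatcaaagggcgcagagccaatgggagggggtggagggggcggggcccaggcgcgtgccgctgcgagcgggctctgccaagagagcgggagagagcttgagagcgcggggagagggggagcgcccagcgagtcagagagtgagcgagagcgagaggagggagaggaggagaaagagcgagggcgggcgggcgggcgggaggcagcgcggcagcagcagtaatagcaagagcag
Bcl11a: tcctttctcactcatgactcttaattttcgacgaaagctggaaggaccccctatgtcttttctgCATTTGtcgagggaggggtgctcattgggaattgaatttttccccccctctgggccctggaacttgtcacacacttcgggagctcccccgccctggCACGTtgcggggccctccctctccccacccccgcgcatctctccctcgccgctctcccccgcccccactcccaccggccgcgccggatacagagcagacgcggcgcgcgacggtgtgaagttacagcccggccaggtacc
Id2: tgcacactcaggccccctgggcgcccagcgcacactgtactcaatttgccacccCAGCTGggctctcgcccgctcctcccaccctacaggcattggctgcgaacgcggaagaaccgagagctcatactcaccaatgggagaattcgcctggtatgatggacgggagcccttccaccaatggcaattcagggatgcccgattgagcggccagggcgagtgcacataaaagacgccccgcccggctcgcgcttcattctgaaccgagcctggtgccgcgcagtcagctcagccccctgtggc
The Pou3f2 window held 1 match to ACGTG, the Bcl11a window 1 ACGTG and 1 E box, and the Id2 window 1 E box. None of the 7 windows, those of Npas1 and Npas3 included, held ATGCAAA or CCGGAAG.

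Npas1, Npas3 and Pou3f1 peaked in cluster 1. Npas1 (chr7:16455721-16477728, minus strand) had 62.0 CPM there (54.9 to 69.7) and 7.21 CPM in cluster 10 (5.97 to 8.63), and these 2 clusters held 90.9% of its UMIs. It was at 0 UMIs in clusters 9, 12 and 14, which allows up to 0.332, 0.604 and 0.841 CPM. In cluster 1 the gene was divided among cells: 47 of 100 held a UMI, and those 47 had a median of 5 UMIs and up to 16.

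Npas3 (chr12:53248677-54072175, plus strand), the relative of Npas1, had 52.5 CPM in cluster 1 (46.0 to 59.6) and 22.5 CPM in cluster 10 (20.3 to 25.0). Unlike Npas1 it was spread widely: 80 of 100 cells in cluster 1 held a UMI, as did 62.2% in cluster 10, and 8 clusters were needed to reach 80% of its UMIs. Its lowest level was 3.22 CPM in cluster 12 (1.84 to 5.23).

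Pou3f1 (chr4:124656807-124660655, plus strand, a single exon) had 43.8 CPM in cluster 1 (37.9 to 50.4). Clusters 8 (23.0 CPM), 7 (20.8), 13 (17.9), 14 (14.0) and 10 (10.5) followed with overlapping intervals between neighbours. In clusters 2 to 6 the gene was low, at 2.18 CPM together (1.85 to 2.56). In cluster 7, 65.6% of cells (56.4 to 73.9%) held a Pou3f1 UMI, and in cluster 8, 27.9% (18.8 to 38.6%). The order of these clusters turned with the barcode set. Cluster 7 was above cluster 8 in set 1 (16.7 CPM, 12.0 to 22.5, against 3.32 CPM, 1.34 to 6.84) and below it in set 2 (22.7 CPM, 18.9 to 27.1, against 35.4 CPM, 29.3 to 42.4).

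Within clusters 1, 8 and 10 the cells were divided by these genes, in splits chosen after their values were seen. In cluster 1, Pou3f1 was detected in 43 of the 47 cells with Npas1 and in 15 of the 53 without. Slc17a8, which encodes the vesicular glutamate transporter VGLUT3, was at 45.7 CPM with Npas1 and 10.1 CPM without, and Gad2, which encodes a GABA synthesis enzyme, at 38.1 and 102 CPM. In cluster 10, 21 of 238 cells held Npas1, up to 17 UMIs in a cell. Of these 21, 20 held Pou3f1 and 20 held Npas3, against 51 and 128 of the other 217. Their Slc17a8 level was 144 CPM, against 372 CPM in the others. None of the 21 was called a doublet, and 3 were from set 1 and 18 from set 2.

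In cluster 8, 16 of 86 cells held 4 or more Pou3f1 UMIs (up to 12), 8 held 1 to 3 and 62 held 0. Pou3f2 was detected in 9 of the 16, in 1 of the 8 and in 7 of the 62. Of the 16 cells with 4 or more Pou3f1 UMIs, 15 were from set 2. Within set 2 alone, 15 cells held 4 or more, 5 held 1 to 3 and 33 held 0, and Pou3f2 was detected in 8 of the 15 (26.6 to 78.7%), 1 of the 5 and 5 of the 33 (5.11 to 31.9%), with intervals that overlapped.

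Most cells held several of the 9 genes. The median cell held 3 of the 9, and 148 cells (6.30%) held none, of which 62 were in cluster 12. There they made up 56.9% of its cells. No cell held all 9, and 2 cells held 8. The cells fell into 219 combinations, of which 59 were seen once. The most frequent combination with any gene was Pax5, Klf5 and Sox14 without the other 6, in 110 cells (4.68%), of which 65 were in cluster 2. At 2 UMIs it was Pax5 alone (262 cells, against 87 with that trio), as it was after thinning (218 against 61). When 2 UMIs were required, the median fell to 1 gene per cell.

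Each set of 3 genes was found together mainly in the clusters where its levels peaked. Pax5, Klf5 and Sox14 were detected together in 455 cells (19.4%, 17.8 to 21.0%). The share was 58.3% in cluster 2, 52.4% in cluster 4, 32.6% in cluster 3, 25.1% in cluster 5 and 8.33% in cluster 6, with 1 cell each in clusters 7, 10 and 11. Pou3f2, Bcl11a and Id2 were together in 225 cells (9.57%, 8.41 to 10.8%). That was 70.2% of cluster 6 (62.7 to 77.0%) and 27.8% of cluster 13 (20.6 to 35.8%), and 11.0% or less in each other cluster. Npas1, Npas3 and Pou3f1 were together in 60 cells, of which 37 were in cluster 1 (37.0%, 27.6 to 47.2%) and 19 in cluster 10 (7.98%, 4.87 to 12.2%). Thinning to 20000 UMIs lowered the share of Pax5, Klf5 and Sox14 cells to 17.5% in cluster 2 and 16.1% in cluster 4. It lowered Pou3f2, Bcl11a and Id2 cells to 36.2% in cluster 6 and 17.2% in cluster 13, and Npas1, Npas3 and Pou3f1 cells to 17.9% in cluster 1.

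**Figure D2:**
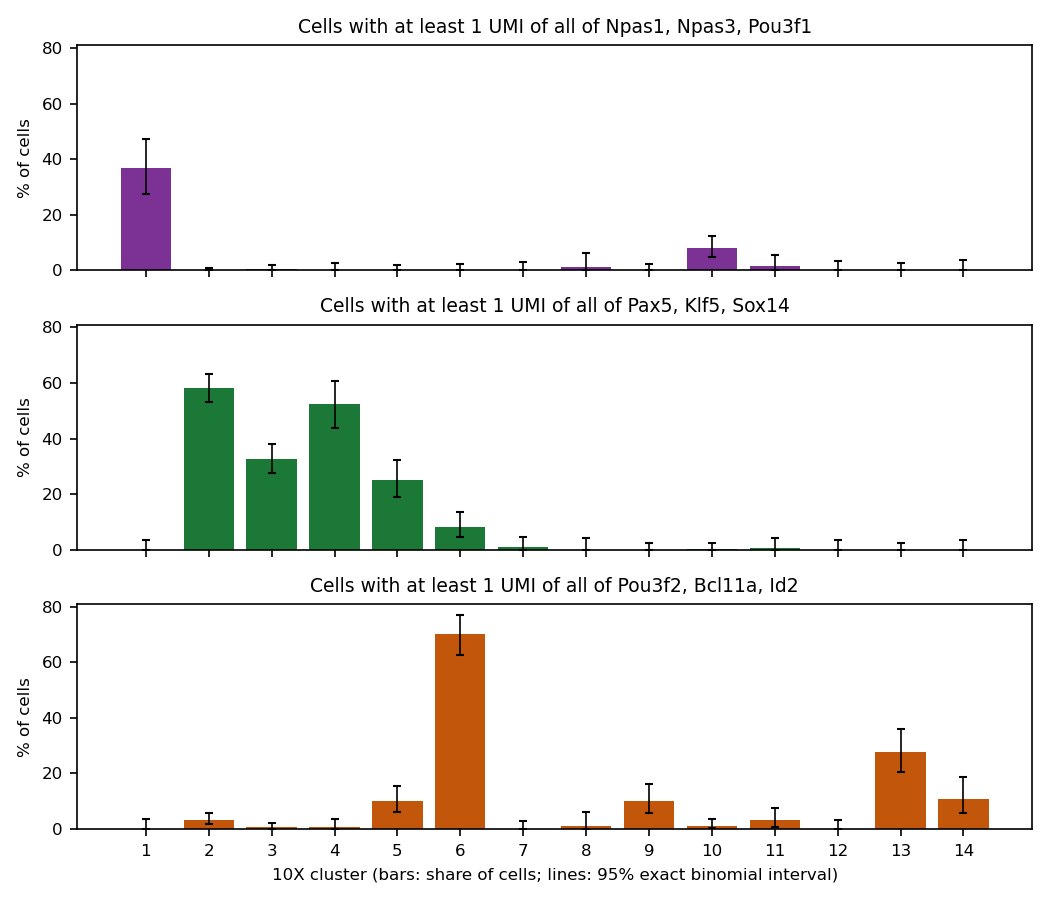
Share of cells in each 10X cluster (bars, % of cells) with at least 1 UMI of all 3 genes of a set, with 95% exact binomial intervals (lines). The set of Npas1, Npas3 and Pou3f1 is highest in cluster 1 (37.0%), that of Pax5, Klf5 and Sox14 in clusters 2 and 4 (58.3% and 52.4%), and that of Pou3f2, Bcl11a and Id2 in cluster 6 (70.2%).

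Joint detection of pairs was often unequal in its 2 directions, which follows from the unlike numbers of cells with each gene. Shares here are over all clusters, so pairing within cells and peaks in shared clusters are not told apart. Of 749 cells with Sox14, 93.9% also held Pax5 (91.9 to 95.5%), against 41.0% of cells without Sox14. Of the cells with Pax5 only 51.7% held Sox14. After thinning, 72.8% of cells with Sox14 held Pax5 (67.9 to 77.2%), against 36.0% without. Likewise 78.3% of 461 cells with Pou3f2 held Bcl11a (74.3 to 82.0%), against 30.1% without Pou3f2, and 38.8% of cells with Bcl11a held Pou3f2. Thinned, the first of these shares was 61.5% (55.7 to 67.1%) against 17.1%. Of the 90 cells with Npas1, 72 held Npas3 and 71 held Pou3f1 (78.9%), against 39.5% and 17.4% of the cells without Npas1. Cells with Npas3 held Npas1 in 7.46%. Thinned, Pou3f1 was found in 63.9% of cells with Npas1 (50.6 to 75.8%) and 9.53% without.

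Other pairs, again over all clusters, were found together less often than apart. Pou3f1 was detected in 10.7% of cells with Pax5 (9.15 to 12.5%) and 32.1% without (29.2 to 35.1%), although cells with Pax5 were deeper (median 62171 against 53947 UMIs). Thinned, these shares were 5.19% and 15.1%. Pou3f2 was detected in 10.9% of cells with Sox14 and 23.7% without, and in 6.74% and 14.1% after thinning. Between the POU genes the direction turned with depth: Pou3f2 was found in 17.7% of cells with Pou3f1 (14.3 to 21.5%) and 20.1% without (18.3 to 22.0%), but in 17.1% and 12.4% after thinning, where the first interval ran from 12.6 to 22.3% and the second from 11.0 to 13.9%. Both pairs of intervals overlapped.

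**Figure D3:**
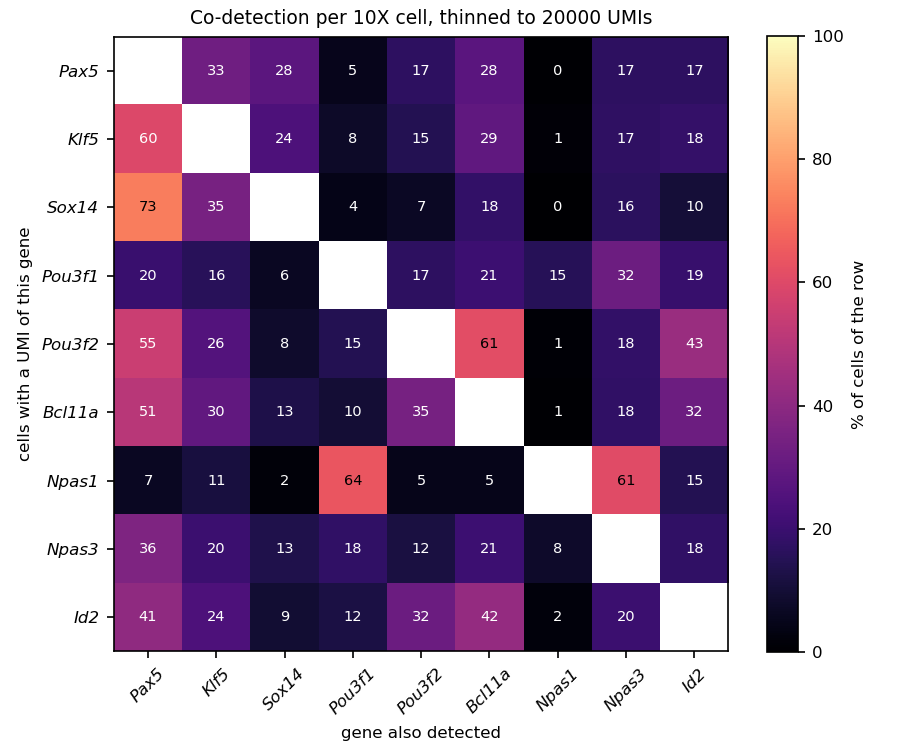
Share of thinned 10X cells (20000 UMIs per cell) with a UMI of the row gene that also held a UMI of the column gene, in % of cells. The highest shares are Pax5 in cells with Sox14 (72.8%), Pou3f1 in cells with Npas1 (63.9%) and Bcl11a in cells with Pou3f2 (61.5%).

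Levels of the genes were also compared by transmitter genes. Thinned cells were classed by UMIs of Gad2 and Slc17a8 into 809 with Gad2 alone, 856 with Slc17a8 alone, 389 with both and 243 with neither. Pax5 was at 75.3 CPM with Gad2 alone (72.9 to 77.7), 42.0 CPM with both, 52.3 CPM with neither and 8.37 CPM with Slc17a8 alone (7.57 to 9.22). Sox14 was at 22.8 CPM with Gad2 alone and 1.09 CPM with Slc17a8 alone. Klf5 kept 6.21 CPM in cells with Slc17a8 alone, against 19.2 CPM with Gad2 alone.

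Bcl11a and Pou3f2 were highest in cells with both transmitter genes, at 34.1 CPM (31.8 to 36.6) and 19.0 CPM (17.3 to 20.9), against 21.0 and 10.1 CPM with Gad2 alone and 11.3 and 6.08 CPM with Slc17a8 alone. Pou3f1 was higher with Slc17a8 alone (12.3 CPM, 11.3 to 13.3) than with Gad2 alone (3.02 CPM, 2.55 to 3.55). Npas1 was highest with neither, at 7.32 CPM (5.96 to 8.90). Npas3 ran only from 10.1 CPM with Gad2 alone to 17.6 CPM with neither. Id2 was also highest with both, at 16.1 CPM (14.5 to 17.8), and was at 9.86 CPM with neither. It did not separate Gad2 alone (9.81 CPM, 8.95 to 10.7) from Slc17a8 alone (10.7 CPM, 9.81 to 11.7). The Pou3f2, Bcl11a and Id2 combination occurred against unlike backgrounds of transmitter genes. Its 118 cells in cluster 6 had Tph2, the serotonin synthesis enzyme of the brain, at 2802 CPM, Gad1 at 200 CPM and Slc17a8 at 50.1 CPM. Its 40 cells in cluster 13 had Tph2 at 471 CPM, Gad1 at 114 CPM and Slc17a8 at 444 CPM. In cluster 13 the cells without the full combination had Gad1 at 52.6 CPM (44.8 to 61.3) and Tph2 at 716 CPM (687 to 746). Pou3f2, Bcl11a and Id2 took part in the clustering, and Gad1 was among the markers by which cluster 6 was numbered. Whether Tph2, Gad1 and Slc17a8 took part in the clustering was not recorded.

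Across the 14 clusters, Pou3f2 and Id2 were each other's most similar gene among 10484 genes with at least 500 UMIs (Pearson r = 0.95 of log2(CPM + 1), n = 14 clusters, which share libraries). For Npas1 the most similar gene was Npas3 (r = 0.89). Pax5 was nearest to Hrh3 (0.97), Pxk (0.96) and Pcsk6 (0.95), and Klf5 to Gucy1a3 (0.94), Ube2e2 (0.94) and Fgfr1 (0.93). Sox14 was near to Oas1e (0.95) and Prph (0.93), and Bcl11a was nearest to Gpc6 (0.94), Nptx1 (0.93) and Cacna1i (0.93). Pou3f1 was nearest to Ndufa5 (0.90), Pcdh19 (0.87) and Pttg1 (0.86). Next after Id2 for Pou3f2 were Lrrtm4 (0.90) and Nptx2 (0.87), and next after Pou3f2 for Id2 were Wbscr17 (0.89) and Kctd8 (0.88). Npas1 was followed by Dusp15 (0.78) and Grik2 (0.76), and the nearest to Npas3 beside Npas1 were Khnyn (0.84), 4930590J08Rik (0.83) and Grik2 (0.82). Npas1 itself, with 438 UMIs, was below the 500 UMIs that a nearest gene had to have. The correlations are a description over clusters.

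Relatives from the same gene families were described by the same 4-fold rule. Of 50 relatives, 41 were in the 10X table and 25 had at least 200 UMIs, and 3 of these 25 were at least 4-fold higher in their top cluster, beside 4.04% of all genes with as many UMIs. Pou3f3 was at 82.1 CPM in cluster 13 (log2 ratio over other cells 2.04), the cluster where Pou3f2 was second highest. Bcl11b, the paralog of Bcl11a, was at 72.1 CPM in cluster 13 (log2 ratio 2.67), where its relative was highest. Sox13 was highest in cluster 12 (log2 ratio 2.26), in which Sox14 was at 0 UMIs. Pax2, a paired-box gene like Pax5, was highest in cluster 2, as was Pax5, at 9.40 CPM (log2 ratio 1.82).

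The barcode sets were compared as a check of each level. Of 126 pairs of a gene and a cluster, 16 had Poisson intervals apart, 14 of them higher in set 2. They involved Pou3f1 and Pou3f2 in 4 clusters each, Bcl11a in 3, Pax5 and Id2 in 2 each and Npas1 in 1, while Klf5, Sox14 and Npas3 had none. Pou3f1 in cluster 8 was at 3.32 CPM in set 1 and 35.4 CPM in set 2, and Pou3f2 there at 1.42 and 13.5 CPM. Npas1 in cluster 10 was at 2.29 and 9.25 CPM. Pax5 in cluster 2 was at 81.2 and 114 CPM, so that it stood level with cluster 4 in set 1 (82.4 CPM, 68.5 to 98.3) and above it in set 2. Against this direction, Pou3f1 in cluster 4 was at 15.4 CPM in set 1 and 3.61 CPM in set 2. Xist had at least 3 UMIs in 830 cells of set 1 and in 0 of set 2, so sex, barcode set and whatever else differed between the sets cannot be told apart.

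**Figure D4:**
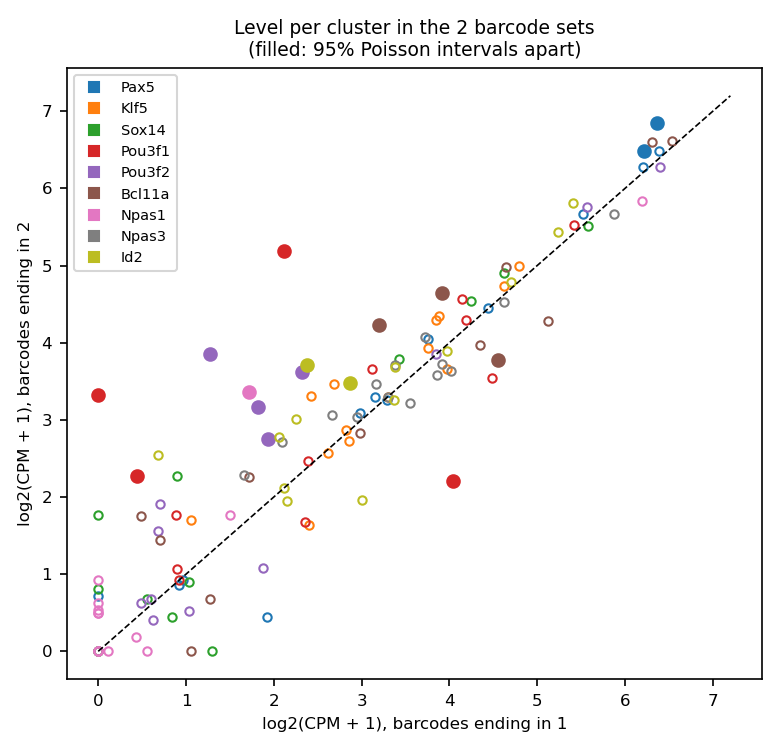
Each point is 1 of the 9 genes in 1 cluster, with log2(CPM + 1) of cells whose barcodes end in 1 (x axis) against cells whose barcodes end in 2 (y axis), and the dashed line marks equal levels. The 16 filled points have 95% Poisson intervals apart, and the farthest above the line are Pou3f1 in cluster 12 (0 against 8.99 CPM) and in cluster 8 (3.32 against 35.4 CPM). In cluster 12 the 28 Pou3f1 UMIs of set 2 lay in 12 of 66 cells, with 16 of them in 1 cell.

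The hand-sorted cells gave the same genes by place of origin, with values per cell. Levels here are not per transcript length, so they are compared within a gene only. Pax5 had reads in 8 of 10 dlDR cells (lowest 0, median 7.98, highest 40.0 CPM), 8 of 9 dmDR cells (0, 3.94, 52.9), 8 of 9 Npy2r rDR cells (0, 12.1, 80.7) and 6 of 8 Crh rDR cells (0, 2.40, 16.7). It had reads in 2 of 8 vmDR cells (highest 31.0 CPM), 1 of 10 Npy2r cDR cells (2.49), 1 of 10 P2ry1 cDR cells (0.483) and 0 of 6 Sert cDR cells. Dorsal and rostral groups were therefore mostly positive for Pax5 and caudal ones mostly at 0, and since each group held cells at 0 the ranges of all groups overlapped.

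Klf5 had reads in all 10 dlDR cells (0.318, 47.6, 87.7 CPM), all 9 dmDR cells (0.296, 15.9, 47.6), all 8 Crh rDR cells (0.342, 17.3, 36.2) and 7 of 9 Npy2r rDR cells (0, 39.3, 79.3). Caudally it differed by Cre line, with reads in 7 of 10 Npy2r cDR cells (0, 7.41, 53.7), 2 of 6 Sert cDR cells (highest 6.42) and 1 of 10 P2ry1 cDR cells (22.2). In vmDR 5 of 8 cells had Klf5 reads (0, 6.15, 39.1). Thus Klf5, unlike Pax5, was also found in most Npy2r cDR cells.

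Sox14 had reads in 6 of 10 dlDR cells (0, 19.0, 104 CPM), 6 of 9 dmDR cells (0, 34.7, 137) and 4 of 8 Crh rDR cells (0, 12.6, 49.0). It had reads in 3 of 8 vmDR cells (highest 75.7) and 1 of 9 Npy2r rDR cells (20.2). All 26 cDR cells were at 0 reads of Sox14. In the smallest library of each caudal group, 3 reads equal 0.897 CPM for Sert, 0.839 CPM for Npy2r and 0.750 CPM for P2ry1.

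Pou3f2 was the rarest gene, with reads in 6 of 70 cells. Of these, 4 were Npy2r rDR cells (10.6, 18.0, 43.4 and 77.8 CPM), 1 was a dlDR cell (16.9) and 1 a Sert cDR cell (2.39). Bcl11a had reads in 7 of 9 Npy2r rDR cells (0, 43.4, 92.5 CPM), 5 of 9 dmDR cells (0, 4.57, 52.1), 4 of 10 dlDR cells (highest 141), 3 of 8 vmDR cells (95.8), 3 of 8 Crh rDR cells (28.2) and 2 of 6 Sert cDR cells (5.01). It was at 0 in all 10 Npy2r cDR and all 10 P2ry1 cDR cells. Id2 was found in every group, from 3 of 10 P2ry1 cDR cells and 4 of 9 dmDR cells to 7 of 8 vmDR cells, with medians from 0 CPM in dmDR and P2ry1 cDR to 29.1 CPM in vmDR.

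Npas3 was found in every group, in 4 of 10 Npy2r cDR cells to 7 of 8 vmDR cells, with the highest median in vmDR (24.2 CPM) and the next in Sert cDR (12.4 CPM). Npas1 had reads in 11 cells, 3 of them dlDR cells, and its median was 0 in every group. Pou3f1 had reads in 5 of 10 Npy2r cDR cells (0, 1.34, 33.3 CPM), 3 of 8 vmDR cells and 2 or fewer in each other group, with 0 of 9 in Npy2r rDR. Its highest value, 195 CPM, was in 1 dmDR cell.

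**Figure D5:**
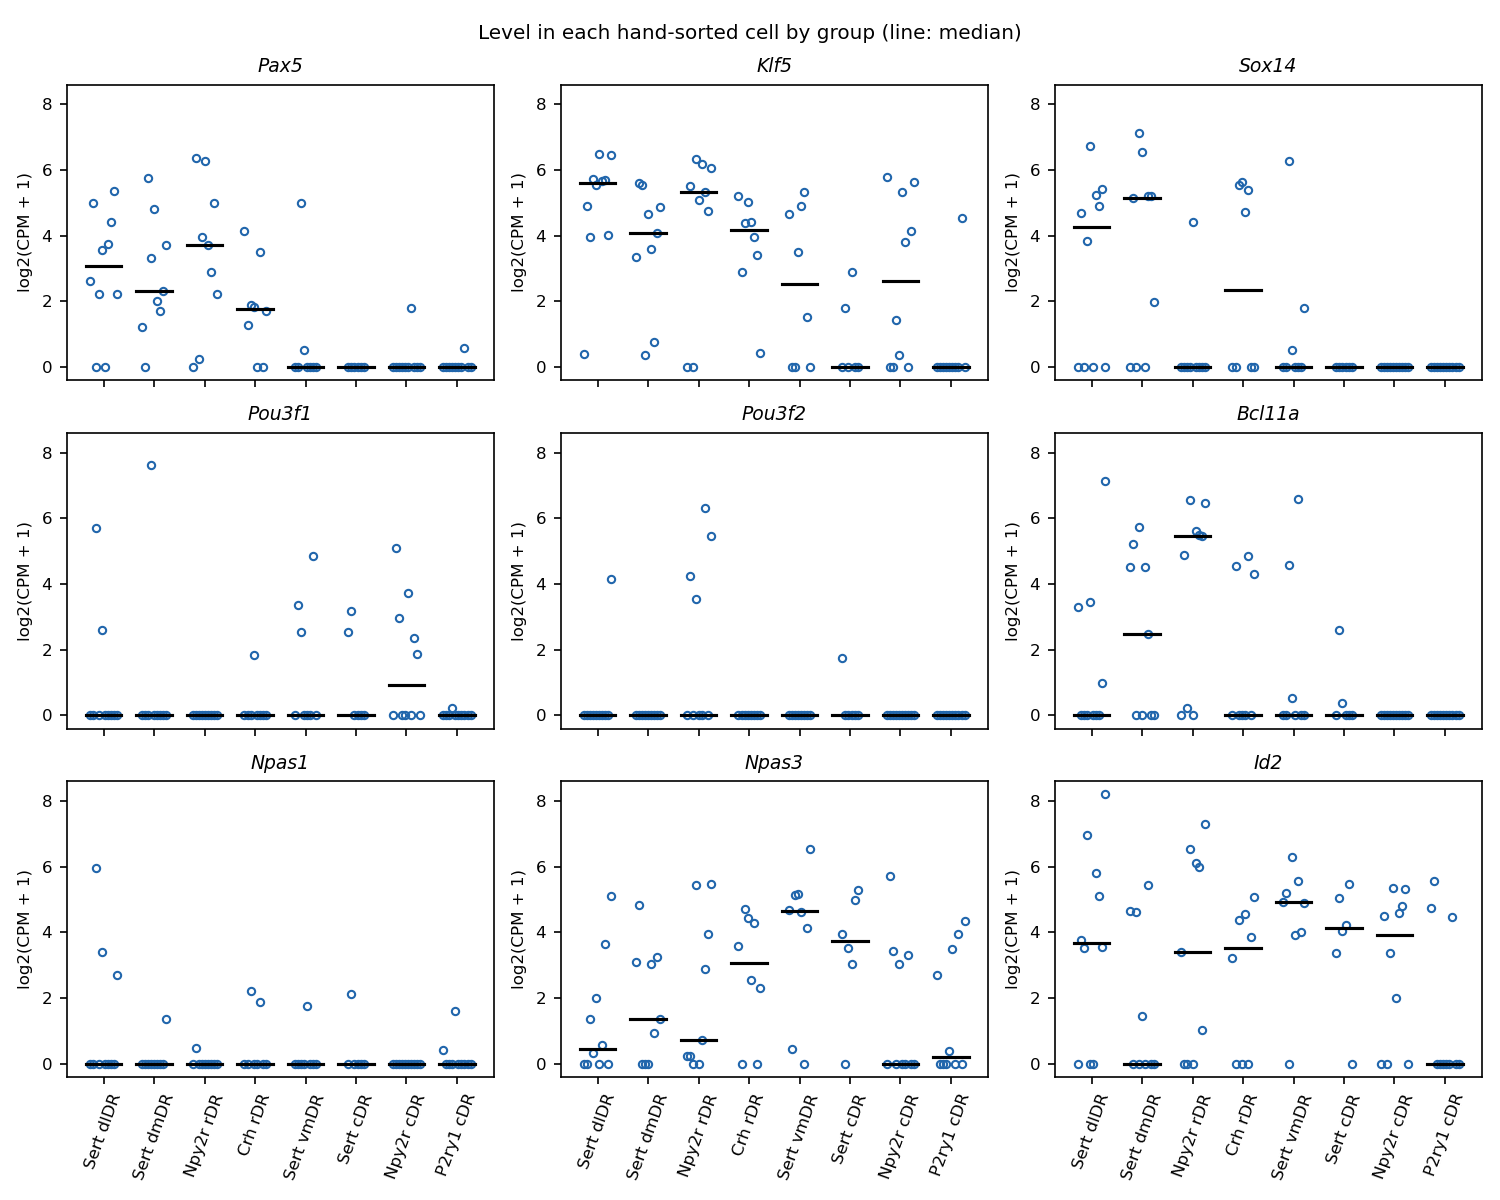
Level of each of the 9 genes in each hand-sorted cell, as log2(CPM + 1) of reads, by Cre line and part of the DR (points are cells, lines are group medians). Pax5 is above 0 in most dlDR, dmDR and rDR cells and in 2 of 26 cDR cells, Sox14 is at 0 in all 26 cDR cells, and Pou3f2 is found mainly in Npy2r rDR cells.

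Combinations in the hand-sorted cells followed the same genes. The median number of the 9 genes with reads was 5 in dlDR and Npy2r rDR cells, 4.5 in Crh rDR, 4 in dmDR, 3.5 in vmDR, 3 in Sert cDR and Npy2r cDR and 1 in P2ry1 cDR. Pax5, Klf5 and Sox14 were together in 16 cells: 6 dlDR, 5 dmDR, 3 Crh rDR, 1 vmDR and 1 Npy2r rDR. With at least 1 CPM of each required, 13 cells were left, with 3 in dmDR and 0 in vmDR and the other counts unchanged. Of the 20 cells with Sox14, 17 held Pax5, against 17 of the 50 without. Pou3f2, Bcl11a and Id2 were together in 4 cells, of which 3 were Npy2r rDR and 1 was dlDR. Of the 6 cells with Pou3f2, 5 held Bcl11a, against 19 of the 64 without, and none of the 6 held Sox14. All 4 Npy2r rDR cells with Pou3f2 also held Pax5, Klf5 and Bcl11a. Npas1, Npas3 and Pou3f1 were together in 2 cells, both dlDR. In 1 of these, Npas1 was at 60.9 and Pou3f1 at 50.7 CPM, the highest value of Npas1 and the second highest of Pou3f1 among the 70 cells.

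Contrasts within a Cre line were made on the mean of log2(CPM + 1) over cells, with a gene counted when it differed at least 2-fold and had reads in at least 3 cells. The contrasts share cells (dmDR is in 3 of them), the genes were chosen on these groups, and the values are a description. Between dlDR with dmDR and Sert cDR, 8 of the 9 genes passed the filter. Of these, 4 were higher in the dorsal cells, beside 12.6% of the 12909 genes tested: Klf5 by 3.51, Sox14 by 3.26, Pax5 by 2.84 and Bcl11a by 1.47 on the log2 scale. Npas3 was lower there (-1.91), beside 15.8% of genes. With a pseudocount of 10 these counts were 2 and 0. For both Pax5 and Klf5, 16 of 19 dorsal cells lay above all 6 cDR cells, and for Sox14 12 of 19. All cDR cells of this contrast were from P63 mice, while 8 of the 19 dorsal cells were from P90 mice. At P63, Pax5 had reads in 4 of 5 dlDR, 5 of 6 dmDR and 0 of 6 cDR cells, and Sox14 in 2, 3 and 0. Klf5 had reads in 5, 6 and 2 of these cells, and Bcl11a in 2, 4 and 2. In dlDR the median of Sox14 was 0 CPM at P63 and 36.8 CPM at P90. Pou3f1 (-0.11), Id2 (-0.90) and Npas1 (0.35) differed by less than 2-fold.

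Within the dorsal DR, dlDR exceeded dmDR for Id2 (1.90), Klf5 (1.23) and Npas1 (1.05), beside 6.36% of 12200 genes, and was below it for Bcl11a (-1.01), beside 13.8%. All these ranges overlapped, and the SD over cells was 2.96 for Id2 in dlDR and 2.39 in dmDR. Pax5 (0.16) and Sox14 (-0.39) differed less. With a pseudocount of 10, 0 of the 9 genes were counted in either direction, and leaving out an age left 1 to 2 higher and 0 to 2 lower. With single cells left out in turn, an alternative chosen after seeing the data, the difference of Npas1 was 0.53 without dlDR cell 3 (Npas1 at 60.9 CPM), that of Klf5 reached 0.83 and that of Bcl11a -0.61, each then below 2-fold, while that of Id2 stayed at 1.39 or more. Without the P63 cells the difference of Bcl11a was 0.058. Between dmDR and vmDR, Sox14 (2.39), Pax5 (2.07), Klf5 (1.16) and Bcl11a (1.04) were higher in dmDR, beside 11.4% of 12232 genes. Id2 (-2.56) and Npas3 (-2.01) were lower, beside 10.9%. No gene separated these groups without overlap. Without the P63 cells the difference of Bcl11a was -0.82, and among cells with reads of the gene only, an alternative chosen after seeing the data, that of Klf5 was -0.34. With a pseudocount of 10, 1 gene was counted higher and 2 lower. With single cells left out, the difference fell to as little as 0.80 for Klf5 and 0.63 for Bcl11a, both then below 2-fold.

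Between Npy2r rDR and Npy2r cDR, the only contrast along the rostrocaudal axis within a line other than Sert, Bcl11a (3.86), Pax5 (3.22), Pou3f2 (2.17) and Klf5 (1.71) were higher in rDR, beside 11.1% of 12010 genes. Pou3f1 was lower (-1.60), beside 12.0%. For both Bcl11a and Pax5, 7 of 9 rDR cells lay above all 10 cDR cells, and 2 rDR cells did not. For Pax5 those 2 were among the 3 rDR cells from P77 mice, with Pax5 at 0 and 0.180 CPM and Klf5 at 0 in both. In the 6 rDR cells from P87 mice Klf5 ran from 26.1 to 79.3 CPM and Pax5 from 3.71 to 76.0 CPM. Without the P87 cells the differences were 2.20 for Pax5, 1.71 for Bcl11a, 1.42 for Pou3f2 and 0.037 for Klf5, and each of the first 3 genes then had reads in fewer than 3 cells, too few to be counted. With a pseudocount of 10, 2 of the 9 genes were counted higher and 0 lower. The rDR cells had a median of 1.46e+06 reads at P87 and 5.55e+06 at P77, and the cDR cells 4.11e+06 and 6.19e+06. Animal, age and depth cannot be told apart here.

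Reads of some genes could have come from an overlapping transcript on the other strand, since exons of Pax5, Pou3f1, Bcl11a and Npas3 share 83 to 636 bases with annotated antisense or unclassified transcripts. Whether the counting used strand is not given in the sources used here for the hand-sorted libraries. The part of such reads was not tested.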

How the data were processed

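The authors mapped 10X reads with Cell Ranger 3.0.2 and reads of hand-sorted cells with STAR 2.5.4, per the labels, and deposited raw counts of UMIs or reads, the 10X table after filtering of cells and genes. Columns of the hand-sorted table were matched to samples by title, except 8 spelled Crf, an older symbol of Crh, which were taken as the Crh rDR cells by number, and 0 columns were left unused. In R 4.3.3 with Seurat 5.3.0, 10X counts were log-normalized, and 2000 variable genes, components 1 to 5 and 8 to 50, 20 neighbours and a resolution of 0.9 gave the clusters. Python 3.11.15 with numpy 2.4.6, pandas 2.3.3, scipy 1.17.1 and scanpy 1.11.5 was used for the rest, and edgeR 4.0.16 for TMM scaling of hand-sorted cells as an alternative.

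CPM used all UMIs or reads on genes. Intervals are at 95%, and an absent count was bounded by 3 counts. Hand-sorted levels used a pseudocount of 1 CPM. As the labels tie no cell to an animal, no p-value was computed. The genes and the lists of markers and relatives were chosen with earlier results of these data known. Named beside them were the 3 genes most correlated with each over clusters, of which 1 is not reported here. The contrast code was run on simulated data over 24256 genes for Npy2r rDR against cDR, where 100% of simulated 8-fold changes and 0.633% of scored unchanged genes were called. These rates check the code only and do not give the reliability of the contrasts of the genes described. Changes near the 2-fold limit were not simulated. Rates for genes without reads in many cells, such as Pou3f2 with reads in 4 of 9 Npy2r rDR cells, were not worked out.

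Genes lie in GRCm38 by GENCODE, and promoter sequences are from RefSeq. Alternatives changed the depth, the detection limit, the barcode set, doublets, the clustering, the pseudocount, the filter and the ages and cells included. Pou3f1 and Klf5 promoters were not used here, nor was histology.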

Additional observations from a re-analysis of the deposited data

Results flagged for a closer look

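Single cells stood far from the rest of their group in 29 of 59 sets of hand-sorted cells tested, by the gap to the nearest cell against the whole range of the group. Chance flags about 1 in 20 groups of normally distributed values, but that rate does not apply here. In 13 of the 29 every other cell was at 0 reads, so any read at all was enough for the mark. All values here are CPM of reads in 1 cell.

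In dlDR, cell 10 held Pou3f2 at 16.9, Bcl11a at 141, Npas3 at 33.9 and Id2 at 298, and cell 3 held Pou3f1 at 50.7 and Npas1 at 60.9. In the same group Sox14 was at 104 in cell 5. In dmDR, Pou3f1 was at 195 in cell 4, Npas3 at 27.3 in cell 2 and Npas1 at 1.58 in cell 9. In vmDR, cell 3 held Pax5 at 31.0 and Sox14 at 75.7, and other vmDR cells held Pou3f1 at 28.1 (cell 7), Bcl11a at 95.8 (cell 6), Npas1 at 2.36 (cell 5) and Npas3 at 92.3 (cell 8). In Sert cDR, Pou3f2 was at 2.39 in cell 1, and Bcl11a at 5.01 and Npas1 at 3.34 in cell 2.

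In Npy2r rDR, Sox14 was at 20.2 in cell 5 and Npas1 at 0.383 in cell 2. In Npy2r cDR, Pax5 was at 2.49 in cell 7, and cell 2 held Pou3f1 at 33.3 and Npas3 at 52.2. In Crh rDR, Pou3f1 was at 2.58 in cell 4. In P2ry1 cDR, Klf5 was at 22.2 in cell 9, Npas1 at 2.03 in cell 5, Pax5 at 0.483 in cell 8 and Pou3f1 at 0.174 in cell 4.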

How the results depend on the processing

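In the 10X cells, 43 of 63 alternative log2 ratios of a top cluster moved by no more than the counting interval and 20 moved by more, 6 of them in barcode set 1, and 25 detection shares moved beyond theirs against 11 that did not. Detection shares were lower with a stricter limit. Cells with Sox14 that held Pax5 were 86.3% at 2 UMIs and 72.8% after thinning, cells with Pou3f2 that held Bcl11a were 61.5% after thinning, and cells with Npas1 that held Pou3f1 were 63.9%. The median number of the 9 genes per cell was 1 at 2 UMIs. Of the alternative values of group counts, shares and co-detection in both data sets, 43 moved and 69 did not.

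In the hand-sorted cells 292 alternative differences of the genes moved by less than the spread between cells, 4 moved by more and 3 reversed. Reversed means here that a difference of at least 2-fold changed sign. The 4 were Pax5 (0.93) and Klf5 (1.60) between the dorsal cells and Sert cDR with a pseudocount of 10, Pou3f1 there among cells with its reads (2.45), and Npas3 between Npy2r rDR and cDR without P87 (-2.13). The reversed ones were Bcl11a between dlDR and dmDR (0.058) and between dmDR and vmDR (-0.82) without the P63 cells, and Klf5 between dmDR and vmDR among cells with its reads (-0.34). Among the 4 that moved, Pou3f1 and Npas3 also changed sign, from differences below 2-fold (-0.11 and 0.55). The cause was not tested. No paired analysis was possible because the labels name no animal and cell numbers pair nothing. With a pseudocount of 10 the genes counted higher and lower fell to 2 and 0 for dlDR with dmDR against Sert cDR, 0 and 0 for dlDR against dmDR and 2 and 0 for Npy2r rDR against cDR, and the higher ones to 1 for dmDR against vmDR. By the median over cells the lower count was 0 for Npy2r. Shares of all genes, higher and lower in that order of contrasts with dmDR against vmDR before Npy2r, were 3.97%, 4.73%, 0.754%, 1.67%, 2.19%, 2.13%, 2.36% and 2.27% with this pseudocount, and 6.70%, 8.48%, 3.22%, 7.00%, 5.80%, 5.59%, 5.60% and 5.93% with no filter, which tests more genes. Leaving out each age in turn, the genes counted higher and lower ran from 1 to 2 and 0 to 2 for dlDR against dmDR, from 2 to 4 and 2 to 2 for dmDR against vmDR, and from 0 to 5 and 1 to 1 for Npy2r rDR against cDR, the 0 without P87, where Pax5, Bcl11a and Pou3f2 had reads in fewer than 3 cells and so were not counted. The shares of all genes ran from 11.2% to 11.9% and 21.1% to 23.2%, from 16.1% to 22.3% and 14.8% to 17.7%, and from 17.5% to 17.8% and 14.7% to 24.7%. Over ages or cells left out in turn, the difference of Bcl11a ran from -1.64 to 0.058 for dlDR against dmDR and from -0.82 to 2.06 for dmDR against vmDR.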
